A study of Mus musculus with 3 samples.

Results

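Inflammatory and myeloid chemokine ligands were followed through RNA-seq of Ly6G+ myeloid cells from mouse bone marrow (BM). The group holds 10 genes, *Ccl2*, *Ccl3*, *Ccl4*, *Ccl5*, *Ccl6*, *Ccl9*, *Cxcl1*, *Cxcl2*, *Cxcl9* and *Cxcl10*, taken by symbol from 16072 named genes, and all 10 were in the table. The genes were picked with the values of these libraries known, so every difference given for them is a description and carries no test. Of the 10, 8 had a mean of at least 1 FPKM (fragments per kilobase of transcript, scaled to the mapped fragments of a library) over the libraries, the level that 9130 genes in all reached. *Ccl2* and *Cxcl1* did not.

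The libraries came from C57BL/6 mice that carried subcutaneous B16.F10 melanoma cells, given 1 week before an intramuscular adeno-associated virus (AAV). In the AAV-IL-27 group the vector expressed both subunits of IL-27 under the ubiquitous CAG promoter, and in the AAV-Ctrl group it was empty. The study used mice aged 6 to 10 weeks and collected the cells 3 weeks after the vector. There were 2 AAV-Ctrl libraries and 1 AAV-IL-27 library, each from a separate mouse, whereas the sample text counts 4 mice, and mice of both groups carried the tumour. Estimated depths were 19500000 to 19600000 fragments. With a single AAV-IL-27 library the spread within that group is unknown, and no p-value was computed. Where 3 values follow each other, they are those of AAV-Ctrl 1, then AAV-Ctrl 2, then AAV-IL-27. A gene was called higher or lower when log2(FPKM + 1) in the AAV-IL-27 library lay at least 1 unit above or below each AAV-Ctrl library. On this scale differences of weakly expressed genes come out too small. In these bulk samples, fewer cells of a type and less RNA per cell cannot be told apart.

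Chemokines are small secreted proteins that guide leukocytes through G-protein-coupled receptors, and they are grouped by the spacing of their first cysteines into CC ligands (*Ccl* genes) and CXC ligands (*Cxcl* genes). *Ccl3* and *Ccl4* encode the macrophage inflammatory proteins MIP-1alpha and MIP-1beta, which neutrophils and macrophages release on activation. *Cxcl1* and *Cxcl2* attract neutrophils through *Cxcr2*, while *Cxcl9* and *Cxcl10* are classical interferon-induced ligands of *Cxcr3* on T and NK cells. Neutrophils are made in the BM, where *Cxcl12* acting on *Cxcr4* retains them.

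Expression of *Ccl3*, *Ccl4* and *Cxcl10* was 4.34-fold, 4.37-fold and 5.70-fold that of the AAV-Ctrl mean in the AAV-IL-27 library, and these 3 of 10 genes were called higher. Over all 9130 genes, 28 were called higher (0.307%) and 212 lower (2.32%), and 0 of the 10 ligands were called lower. *Cxcl2*, *Ccl9*, *Ccl6* and *Ccl5* were above both AAV-Ctrl libraries by smaller amounts, so that 7 of the 10 ligands lay above both, against 38.9% of the genes tested. *Cxcl9* lay between the AAV-Ctrl libraries, *Ccl2* was the 1 ligand below both (41.9% of the genes tested were), at 2 or 3 estimated fragments, and *Cxcl1* was listed at 0 in every library. The median log2 difference over the 10 ligands was 0.60, against -0.02 over all 16072 genes with no filter. Over the 8 that averaged 1 FPKM or more it was 0.72, against -0.01 over all genes tested. The median of 0.60 became 0.33 when AAV-Ctrl 1 was left out and 0.87 when AAV-Ctrl 2 was. Since the contrast was in view when the genes were picked, these shares and medians are not evidence about the group.

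The promoters of 4 ligands are shown because these genes sit next to each other in pairs or behave differently: *Cxcl9* and *Cxcl10* are neighbours with unlike differences, *Ccl3* was called higher, and *Cxcl2* is the abundant neutrophil attractant. Each line gives the 250 bases before the RefSeq start on GRCm38.p6, with capitals marking matches on either strand to a kappaB motif of NF-kappaB (GGGA, any 4 bases, CC) or to the interferon-stimulated response element, ISRE (GAAA, any 2 bases, GAAA). RefSeq promoters were found for 7 of the 10 genes, and *Ccl2*, *Ccl4* and *Ccl5* were not matched.
Cxcl10: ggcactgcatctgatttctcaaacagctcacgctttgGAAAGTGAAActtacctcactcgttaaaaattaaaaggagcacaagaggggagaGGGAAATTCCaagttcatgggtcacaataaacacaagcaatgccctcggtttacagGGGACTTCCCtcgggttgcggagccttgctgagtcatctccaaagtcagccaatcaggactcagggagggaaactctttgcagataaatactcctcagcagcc
Cxcl9: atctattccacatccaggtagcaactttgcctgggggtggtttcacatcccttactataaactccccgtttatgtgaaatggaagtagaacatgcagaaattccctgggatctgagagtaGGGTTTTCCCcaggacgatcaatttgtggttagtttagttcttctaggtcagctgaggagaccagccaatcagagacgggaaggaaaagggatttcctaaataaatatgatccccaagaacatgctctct
Cxcl2: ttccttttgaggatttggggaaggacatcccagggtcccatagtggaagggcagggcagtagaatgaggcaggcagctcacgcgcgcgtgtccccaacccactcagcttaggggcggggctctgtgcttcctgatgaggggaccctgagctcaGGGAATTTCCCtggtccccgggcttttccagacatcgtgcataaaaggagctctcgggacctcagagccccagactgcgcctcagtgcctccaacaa
Ccl3: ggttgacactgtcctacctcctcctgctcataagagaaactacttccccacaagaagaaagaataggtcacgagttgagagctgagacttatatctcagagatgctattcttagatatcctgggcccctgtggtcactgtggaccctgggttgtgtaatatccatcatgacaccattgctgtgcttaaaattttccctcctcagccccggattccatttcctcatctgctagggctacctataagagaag
These windows are chr5:92348890-92349139, minus strand, for *Cxcl10*, chr5:92328080-92328329, minus strand, for *Cxcl9*, chr5:90903649-90903898, plus strand, for *Cxcl2*, and chr11:83649379-83649628, minus strand, for *Ccl3*. The *Cxcl10* window held 2 kappaB matches, GGGAAATTCC and GGGACTTCCC, which begin 159 and 103 bases before the start, and 1 ISRE match, GAAAGTGAAA, at 213 bases. The *Cxcl9* window held 1 kappaB match, GGGTTTTCCC, at 130 bases, and that of *Cxcl2* held 2 that overlap on opposite strands, at 97 and 96 bases. In the windows of *Ccl3*, *Ccl6* and *Ccl9* neither motif was present. The AP-1 motif TGANTCA was found in the windows of *Cxcl10* and *Ccl9*, and the GAS motif (TTC, any 3 bases, GAA) in none of the 7. Over 32851 promoter windows of the same length, 17.6% held a kappaB, 2.98% an ISRE, 6.75% an AP-1 and 7.02% a GAS match. A match is a run of letters and not a site known to be bound.

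Among the CC ligands, *Ccl3* (chromosome 11 from 83647844 to 83649355, minus strand, GRCm38) had 9.63, 8.44 and 39.2 FPKM. *Ccl4*, which begins 13228 bp beyond *Ccl3* and is read in the opposite direction (83662584 to 83664683), had 4.00, 3.51 and 16.4 FPKM. For both, the AAV-IL-27 value stood apart from AAV-Ctrl values that were close together, at 9.04 ± 0.842 (SD, n = 2) for *Ccl3* and 3.76 ± 0.347 (SD, n = 2) for *Ccl4*. The log2 difference was 2.00 for *Ccl3*, from 1.92 against AAV-Ctrl 1 to 2.09 against AAV-Ctrl 2. For *Ccl4* it was 1.88, from 1.80 to 1.95. Ranked by the rise above the nearer AAV-Ctrl library, *Ccl3* stood at 6 and *Ccl4* at 8 of 9130 genes. The levels of this pair kept the same proportion, with *Ccl3* at 2.41 times the FPKM of *Ccl4* in AAV-Ctrl 1, 2.40 times in AAV-Ctrl 2 and 2.39 times with AAV-IL-27. The estimated fragments of *Ccl3* were 129 and 113 in AAV-Ctrl (95% Poisson intervals from 107.7 to 153.3 and from 93.1 to 135.9) and 524 in AAV-IL-27 (from 480.1 to 570.8), and those of *Ccl4* were 45, 40 and 186. For both genes the interval in AAV-IL-27 lay above those of the AAV-Ctrl libraries. These intervals cover counting error only and say nothing of the spread between mice.

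**Figure D1:**
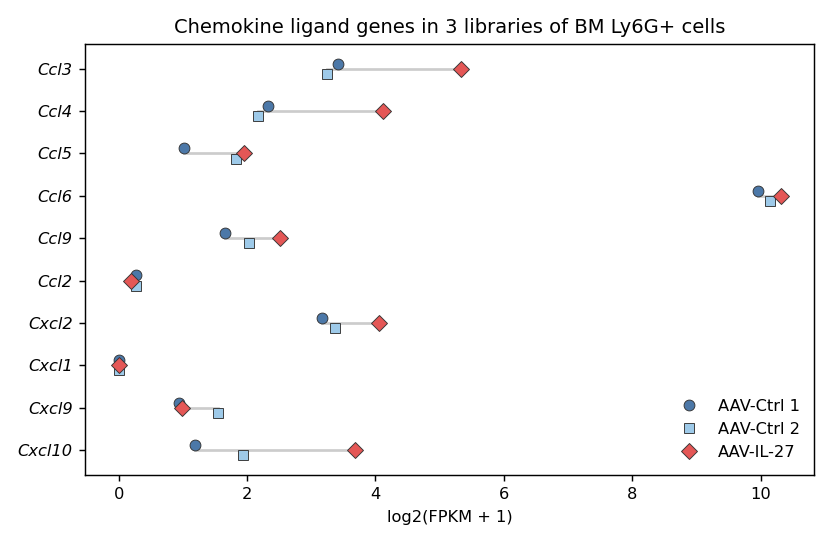
Expression of the 10 chemokine ligands, with log2(FPKM + 1) on the horizontal axis and 1 symbol per library (circles and squares, AAV-Ctrl 1 and 2; diamonds, AAV-IL-27); symbols are offset vertically for legibility. The diamonds of *Ccl3*, *Ccl4* and *Cxcl10* stand well to the right of both AAV-Ctrl symbols, at 39.2, 16.4 and 11.8 FPKM, and *Ccl6* exceeds every other ligand in each library.

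*Ccl6*, a CC ligand of the myeloid lineage that signals through *Ccr1*, (chromosome 11 from 83587882 to 83593087, minus strand) was by far the most abundant, with 989.1, 1129 and 1278 FPKM. It made up 92.5%, 92.7% and 92.5% of the summed FPKM of the 32 chemokine ligands found. The AAV-IL-27 value was above both AAV-Ctrl libraries, but by only 0.18 on the log2 scale over the nearer one, while the AAV-Ctrl libraries themselves differed by 0.19. The antisense gene *E230016K23Rik* overlaps *Ccl6* and had 1.89, 1.94 and 1.86 FPKM. *Ccl9*, its neighbour 9245 bp away on the same strand (83572919 to 83578636) and another *Ccr1* ligand, had 2.17, 3.10 and 4.70 FPKM. The log2 difference of *Ccl9* was 0.66, against 0.37 between the AAV-Ctrl libraries. With *Ccl6* set aside, the other 9 ligands summed to 27.2, 31.9 and 91.7 FPKM.

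*Ccl5*, known as RANTES and made mainly by T and NK cells (chromosome 11 from 83525778 to 83530518, minus strand), had 1.03, 2.54 and 2.87 FPKM. The AAV-IL-27 value lay 0.13 above AAV-Ctrl 2 on the log2 scale, within the gap of 0.80 between the AAV-Ctrl libraries. Its transcript was seen in few fragments, an estimated 9, 23 and 25, and the 95% Poisson intervals of AAV-Ctrl 2 (14.6 to 34.5) and AAV-IL-27 (16.2 to 36.9) overlap. Of 13 markers of T and NK cells 12 were found, with summed levels of 15.5, 16.9 and 16.3 FPKM. Of these, 0 were called in either direction, against 0.307% higher and 2.32% lower over all genes tested. Only 3 of the 12 averaged 1 FPKM or more. The sum, led by *Cd3d* (7.40, 6.35 and 7.06 FPKM), covers genes that differed in opposite directions. There were 4 above both AAV-Ctrl libraries, 3 below both and 5 between them, against 38.9% above and 41.9% below both over all genes tested. The cytotoxic genes *Gzma* (0.13, 0.38 and 1.35 FPKM), *Gzmb* (0.12, 0.08 and 0.50) and *Prf1* (0.03, 0.03 and 0.13) were above both. They rested on few estimated fragments, 2, 6 and 21 for *Gzma*, 3, 2 and 13 for *Gzmb* and 1, 1 and 6 for *Prf1*. Other cytotoxic and NK cell genes of the list were not above both. *Klrk1* (0.43, 0.53 and 0.20 FPKM) was below both, and *Nkg7*, *Klrb1c* and *Ncr1* lay between the AAV-Ctrl libraries. *Cd4* (4.03, 4.25 and 2.03 FPKM) was also below both. The part of these cells in the *Ccl5* values was not tested. *Ccl2*, the main attractant of monocytes through *Ccr2*, had 0.21, 0.21 and 0.14 FPKM. Its 3, 3 and 2 estimated fragments do not allow a difference to be seen at this depth.

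Among the CXC ligands that act on neutrophils, *Cxcl2* (chromosome 5 from 90903871 to 90905938, plus strand) had 7.98, 9.38 and 15.6 FPKM. It was 1.80-fold the AAV-Ctrl mean, and its log2 difference of 0.78, with 0.68 over the nearer AAV-Ctrl library, was larger than the 0.21 between the AAV-Ctrl libraries but short of a call. Its estimated fragments were 160, 189 and 313, and the 95% Poisson interval in AAV-IL-27 (279.3 to 349.7) did not reach those in AAV-Ctrl. *Cxcl3*, a ligand of the same type in the same gene cluster and not one of the 10, had 0.17, 0.22 and 0.55 FPKM. The transcripts of *Cxcl2* and *Cxcl3* are 90.1% identical over 354 nt, so some fragments may have been assigned to either gene. *Cxcl1*, which lies 10755 bp from *Cxcl2* and encodes the other main mouse attractant of *Cxcr2*-bearing neutrophils, was listed at 0 in all 3 libraries. The promoter window of *Cxcl1* held 3 kappaB matches, of which 2 overlap.

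The interferon-induced pair did not behave alike. *Cxcl10* (chromosome 5 from 92346638 to 92348889, minus strand), also called IP-10, had 1.29, 2.85 and 11.8 FPKM. The AAV-IL-27 value was 9.15-fold that of AAV-Ctrl 1 and 4.14-fold that of AAV-Ctrl 2, with log2 differences of 2.48 and 1.73 and of 2.11 against their mean. *Cxcl9* (92321347 to 92328079, minus strand), 18558 bp away and also known as MIG, had 0.93, 1.91 and 0.99 FPKM. Its log2 difference of -0.25 became 0.04 against AAV-Ctrl 1 alone and -0.55 against AAV-Ctrl 2 alone. The FPKM of *Cxcl10* was 1.39 and 1.49 times that of *Cxcl9* in the AAV-Ctrl libraries and 11.9 times in AAV-IL-27. *Cxcl11*, the next gene of this cluster and the remaining *Cxcr3* ligand, had 0.03, 0.03 and 0.10 FPKM. Estimated fragments were 26, 57 and 233 for *Cxcl10* and 51, 105 and 54 for *Cxcl9*. The 95% Poisson intervals of *Cxcl10* (17.0 to 38.1, 43.2 to 73.9 and 204 to 264.9) were apart from each other, and those of *Cxcl9* in AAV-Ctrl 1 (38.0 to 67.1) and AAV-IL-27 (40.6 to 70.5) overlapped while AAV-Ctrl 2 was higher. The gene *Art3* overlaps *Cxcl10* on the opposite strand, and 133 nt of the *Cxcl10* transcript are shared with an *Art3* transcript. *Art3* had 0.08, 0.24 and 0.20 FPKM, and whether the counting used strand was not given in the sources used here.

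**Figure D2:**
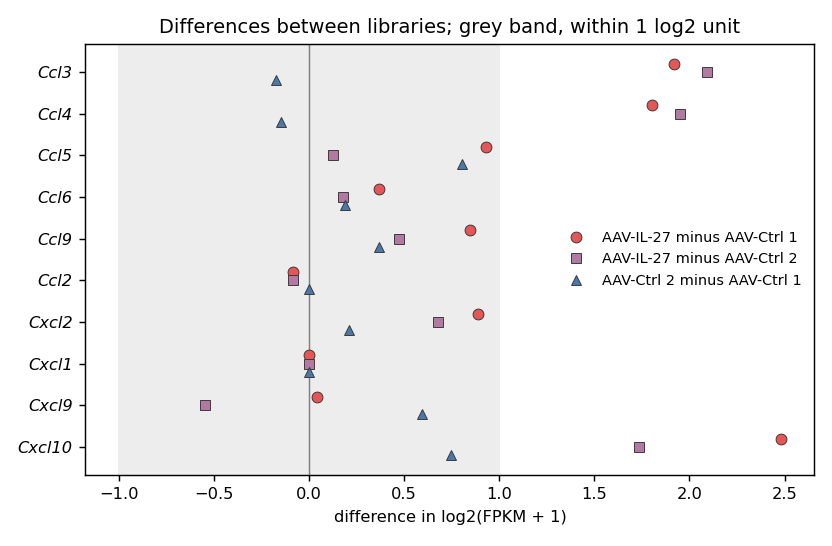
Differences in log2(FPKM + 1) between pairs of libraries for each ligand (circles, AAV-IL-27 minus AAV-Ctrl 1; squares, AAV-IL-27 minus AAV-Ctrl 2; triangles, AAV-Ctrl 2 minus AAV-Ctrl 1), with the band within 1 log2 unit in grey. *Ccl3*, *Ccl4* and *Cxcl10* have both AAV-IL-27 symbols beyond 1, whereas the triangles of *Ccl5* (0.80), *Cxcl10* (0.75) and *Cxcl9* (0.59) show that these genes differed most between the AAV-Ctrl libraries.

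Among the 10 ligands, the AAV-Ctrl libraries differed most in *Ccl5* and the interferon-induced pair. *Ccl5*, *Cxcl10* and *Cxcl9* were 2.47-fold, 2.21-fold and 2.05-fold as abundant in AAV-Ctrl 2 as in AAV-Ctrl 1, at ranks 25, 32 and 82 of 9130 genes by the size of that difference. A gap of at least 0.5 log2 units in this direction was found for these 3 of 10 ligands and for 1.02% of the genes tested. For *Ccl5* it rested on an estimated 9 and 23 fragments, whose 95% Poisson intervals overlap (4.1 to 17.1 and 14.6 to 34.5). The AAV-Ctrl intervals of *Cxcl10* and of *Cxcl9* did not overlap. *Ccl3* and *Ccl4* were lower in AAV-Ctrl 2 by small amounts, at -0.17 and -0.15. In AAV-Ctrl the order of the ligands by mean FPKM was *Ccl6*, *Ccl3*, *Cxcl2*, *Ccl4*, *Ccl9*, *Cxcl10*, *Ccl5*, *Cxcl9*, *Ccl2* and *Cxcl1*. The AAV-Ctrl values of *Ccl3* and *Cxcl2* overlap, and so do those of *Ccl9*, *Cxcl10*, *Ccl5* and *Cxcl9* (each gene with the next in that order), while *Ccl4* is apart from both its neighbours. In AAV-IL-27 the order was *Ccl6*, *Ccl3*, *Ccl4*, *Cxcl2*, *Cxcl10*, *Ccl9*, *Ccl5*, *Cxcl9*, *Ccl2* and *Cxcl1*, and *Ccl4* and *Cxcl2* were close at 16.4 and 15.6 FPKM.

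Genes of the interferon response were listed as company for *Cxcl9* and *Cxcl10*. Of the 20 whose FPKM averaged 1 or more, 19 were above both AAV-Ctrl libraries (38.9% of all genes tested), with a median log2 difference of 0.57 against -0.01 over all genes tested. AAV-Ctrl 2 was also above AAV-Ctrl 1 in 20 of the 20, against 50.3% of all genes. Only *Cd274*, which encodes PD-L1, was called higher among the 20, at 5.44, 5.62 and 15.9 FPKM. *Gbp4*, a guanylate-binding GTPase with a mean FPKM under 1, met the same limit at 0.13, 0.22 and 1.51. *Ifit3*, an antiviral gene induced by type I interferon, had 14.4, 30.0 and 59.5 FPKM, so its AAV-Ctrl libraries differed by 1.01 and AAV-IL-27 lay 0.96 above the nearer one. Abundant genes of the list were *Oasl2* (84.7, 94.2 and 134.4 FPKM), *Irf1* (84.2, 86.0 and 103.5) and *Irf7* (59.1, 82.0 and 97.4). *Irf8*, a transcription factor of monocytes and dendritic cells, was the exception below both, at 7.49, 7.89 and 4.66 FPKM.

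Genes of the NF-kappaB response, which is known to induce *Ccl3*, *Ccl4* and *Cxcl2*, showed no call. Over all genes tested, 0.307% were called higher and 2.32% lower, and at such shares a list this short can hold none. Of the 16 whose FPKM averaged 1 or more, 10 were above both AAV-Ctrl libraries and 3 below both, against 38.9% and 41.9% of all genes tested. Their median log2 difference was 0.17, in a range from -0.63 for *Cd83* to 0.57 for *Icam1*. *Il1b*, which encodes interleukin-1beta, had 500.01, 380.9 and 478.7 FPKM. *Tnf* had 17.2, 17.5 and 18.0 FPKM, a log2 difference of 0.05. *Nfkbia*, the feedback inhibitor IkappaBalpha, had 84.0, 81.2 and 113.8 FPKM, a difference of 0.46. *Ier3* (63.2, 54.7 and 54.2 FPKM) and *Birc3* (40.9, 39.9 and 49.95 FPKM) complete the most abundant of the list. Between the AAV-Ctrl libraries, 9 of the 16 were higher in AAV-Ctrl 2.

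**Figure D3:**
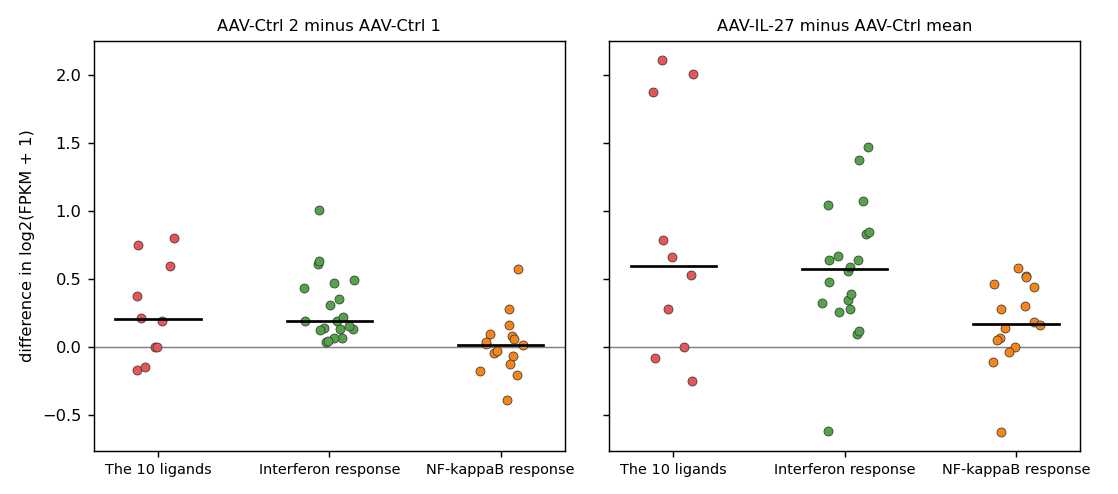
Differences in log2(FPKM + 1) between the AAV-Ctrl libraries (left) and between AAV-IL-27 and the AAV-Ctrl mean (right), with 1 point per gene and a bar at the median, for the 10 ligands and for genes of the interferon and of the NF-kappaB response whose FPKM averaged 1 or more. Both panels use the same AAV-Ctrl libraries; the 20 interferon genes all lie above 0 on the left, and 3 ligands lie at 1.88 or higher on the right.

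The receptors for these ligands were measured in the same cells. *Cxcr2*, the neutrophil receptor of *Cxcl1* and *Cxcl2*, had 598.3, 566.8 and 532.7 FPKM, and *Cxcr1*, the related receptor, had 10.7, 10.6 and 5.23. *Ccr1*, which binds *Ccl3*, *Ccl5*, *Ccl6* and *Ccl9*, had 238.8, 208.7 and 214.4 FPKM with the AAV-IL-27 value between the others. *Cxcr4*, the *Cxcl12* receptor, had 318.1, 310.9 and 487.2 FPKM and was above both without reaching a call. *Cxcr3* rested on low values of 1.39, 1.17 and 3.55 FPKM, 0.93 above the nearer AAV-Ctrl library. *Ccr2*, the *Ccl2* receptor, had 1.43, 1.61 and 2.64 FPKM.

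Of 21 receptors found, 9 had a mean FPKM of at least 1, and their median log2 difference was 0.10. Among the 9, 1 was called higher and 1 lower, against 0.307% and 2.32% of all genes tested. *Ccrl2*, an atypical receptor that presents chemerin, had 3.98, 3.77 and 10.7 FPKM, a log2 difference of 1.26. *Ccr3*, the eotaxin receptor of eosinophils that also binds *Ccl5*, had 14.4, 12.9 and 2.16 FPKM, a difference of -2.21. Eosinophil, basophil and mast cell markers summed to 30.3, 33.5 and 31.0 FPKM over 9 genes, of which 0 were called. The sum covers genes that differed in opposite directions, 3 above both AAV-Ctrl libraries, 4 below both and 2 between them. Over all genes tested, 38.9% were above both and 41.9% below both. The part of eosinophils in the *Ccr3* value was not tested. Of that list, *Siglecf* had 9.49, 7.44 and 12.4 FPKM, *Kit* had 5.55, 5.39 and 6.94, and *Fcer1a* had 0.11, 0.00 and 0.60, an estimated 2, 0 and 11 fragments. The eosinophil granule genes *Prg2* (7.83, 10.9 and 5.16 FPKM) and *Epx* (1.23, 1.83 and 0.71) were below both. Among the other atypical receptors, *Ackr1* had 1.34, 1.00 and 0.14 FPKM and *Ackr2* had 0.00, 0.02 and 0.07.

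**Figure D4:**
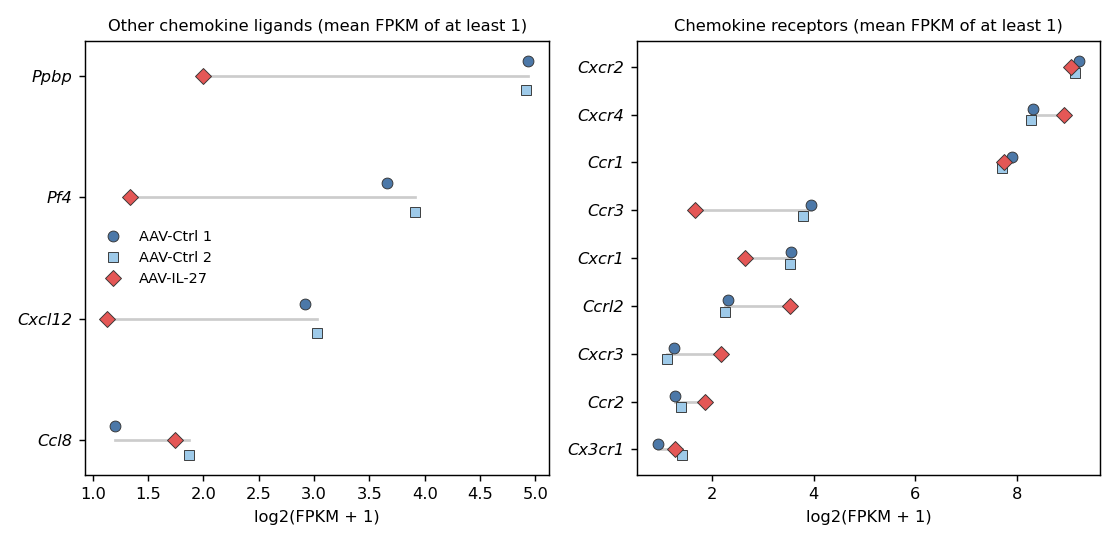
Other chemokine ligands (left) and chemokine receptors (right) with a mean FPKM of at least 1, with log2(FPKM + 1) on the horizontal axis and 1 symbol per library (circles and squares, AAV-Ctrl 1 and 2; diamonds, AAV-IL-27). *Ppbp*, *Pf4*, *Cxcl12* and *Ccr3* lie far to the left in AAV-IL-27, and *Ccrl2* lies to the right.

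Other chemokine ligands were mostly near 0. Of 28 listed, 22 were found, 4 had a mean FPKM of at least 1, and 3 of these 4 were called lower, against 2.32% of all genes tested. *Ppbp* and *Pf4*, chemokines stored in platelet granules, had 29.6, 29.1 and 2.99 FPKM and 11.7, 14.0 and 1.53 FPKM. *Cxcl12*, the retention ligand of BM stroma, had 6.58, 7.15 and 1.18 FPKM. The log2 differences of *Ppbp*, *Pf4* and *Cxcl12* were -2.93, -2.45 and -1.85. *Ccl8*, a monocyte attractant, had 1.30, 2.66 and 2.34 FPKM, between the AAV-Ctrl libraries. *Ppbp* and *Pf4* lie in the same stretch of chromosome 5 as *Cxcl1* and *Cxcl2*, so the differences were not alike along that gene cluster. The 10 ligands made up 95.1%, 95.3% and 99.2% of summed ligand FPKM. This share depends on both parts, as the 10 summed to 1016, 1161 and 1370 FPKM and the other 22 to 52.6, 57.5 and 11.65 FPKM.

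Markers of several other cell types were lower in the AAV-IL-27 library. Over all genes tested, 2.32% were called lower and 0.307% higher. Of 14 macrophage markers, 12 were called lower, and their summed level was 1005, 978.1 and 354.9 FPKM. All 8 erythroid markers were called lower (sums of 14677, 9804 and 1672 FPKM), as were 6 of 9 B cell markers (30.7, 41.0 and 5.07; 5 of the 5 whose FPKM averaged 1 or more, and *Pax5* under that level), 3 of 6 megakaryocyte markers (53.0, 59.2 and 9.61, *Ppbp* and *Pf4* included) and 2 of 10 of stroma and endothelium (17.5, 19.3 and 8.23, *Cxcl12* included). Of 11 monocyte and dendritic cell markers 0 were called. Their sums of 1127, 1184 and 1259 FPKM came mostly from *Ly6c2* (1023, 1086 and 1145 FPKM). Among the 7 that averaged 1 FPKM or more, 5 were above both AAV-Ctrl libraries and 0 below both, with a median log2 difference of 0.46. Over all genes tested, 38.9% were above both and 41.9% below both, and the median was -0.01. The gate's own marker, *Ly6g*, had 711.8, 766.1 and 586.3 FPKM, and 0 of 10 late neutrophil and 0 of 8 granule-stage markers were called. Of the granule-stage markers, *Mpo*, *Elane*, *Prtn3*, *Ctsg* and *Ms4a3* were above both AAV-Ctrl libraries, and *Ltf*, *Camp* and *Ngp* below both. Of the late neutrophil markers, 3 were above both, 4 below both and 3 between them. No marker was listed at 0 in all libraries. The part of these other cells in the ligand values was not tested.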

How the data were processed

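RNA was extracted with Trizol, mRNA was enriched with oligo-dT, and dUTP-marked libraries were sequenced on a DNBSEQ platform. The authors deposited FPKM values to 2 decimals in 16073 rows, and the 1 row lacking a symbol was dropped. The submitters' processing notes name the build mm10. The aligner, the counter and the use of strand are not given in the sources used here. The table holds 1 further column of per-sample values headed as a further AAV-IL-27 replicate that fits none of the listed samples, and it was left aside.

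Values were compared as log2(FPKM + 1), with calls at 1 log2 unit against each AAV-Ctrl library. No p-value was computed, and no count test was run. Depth and fragment numbers were inferred from the spacing of low FPKM values of 10787 genes, using GENCODE M21 transcript lengths, after subtracting 80 nt. Of 393, 378 and 385 low values, 81.4%, 78.3% and 79.5% lay within 0.2 of a whole fragment, so fragments are estimates. Alternatives were a pseudocount of 0.1, equal FPKM totals, median-ratio rescaling, other thresholds and filters, and leaving out either AAV-Ctrl library. The scripts were tested on simulated data.

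The genes described and all lists were chosen with earlier results of these data known. The genes named are the 10 ligands, the receptors that bind them and, from each list of chemokines, receptors and response genes, those called and the 4 of highest mean FPKM, except that some items are not reported here. *Cxcl3*, *Cxcl11*, *Irf8*, *Ifit3*, *Tnf*, *Cd83*, *Icam1*, *Art3* and the single markers were named after their values were seen. Transcripts were compared with BLAST 2.17.0. Tables were handled with pandas 2.3.3 and numpy 2.4.6 under Python 3.11.15, intervals came from scipy 1.17.1, and plots from matplotlib 3.10.9.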

Additional observations from a re-analysis of the deposited data

How the results depend on the processing

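*Ccl3*, *Ccl4* and *Cxcl10* were above both AAV-Ctrl libraries, and 3 ligands were called higher, with a pseudocount of 0.1, under both rescalings and without either AAV-Ctrl library. Of these settings, only the rescalings could have undone a call. A smaller pseudocount widens every difference, and a call already had to hold against each AAV-Ctrl library. The count of ligands called higher was 4 with the threshold set to 0.5, and 0 with it set to 2, which no ligand exceeded against both libraries. Of 50 values of single ligands under alternatives, 4 left the range of 1 AAV-Ctrl SD, 3 of *Ccl2* and 1 of *Ccl4* (2.10 with a pseudocount of 0.1), and 1 changed sign, that of *Cxcl9* without AAV-Ctrl 2 (0.04). This count does not measure stability. With 2 AAV-Ctrl libraries, leaving 1 out cannot shift a value by as much as 1 SD. *Cxcl1* was 0 throughout, and *Ccl2* had an SD of 0, so that any change left its range. The median over the 4 other chemokine ligands that averaged 1 FPKM or more was -2.71 with a pseudocount of 0.1, against -2.15 with 1. With a pseudocount of 1, the median over all 22 other ligands found was -0.03. The receptor median of 0.10 became 0.12 with equal FPKM totals, 0.14 by median ratio and 0.19 with a pseudocount of 0.1, and ranged from 0.039 to 0.34 without 1 AAV-Ctrl library. Over all genes, 28 higher and 212 lower calls became 143 and 640 with a 0.5 threshold, 5 and 39 with a threshold of 2, and 22 and 93 when the FPKM had to average 5 or more. With a pseudocount of 0.1 the lower calls were 396, and without 1 AAV-Ctrl library the higher calls were 40 to 49. Equal totals and median ratio shifted the all-gene median by 0.04 and 0.05.

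No paired analysis was possible because no more than 1 label number is common to both groups and no result comes from a test. With 1 AAV-IL-27 library, that group has no measured spread and no library to leave out, since the further column headed as AAV-IL-27 was not used. Depth limits *Ccl2*, *Ccl5* and *Cxcl1*, which rest on at most 25 estimated fragments a library.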
